A study of Mus musculus with 31 samples.

Results

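The Srap1 knockout (KO) RNA table of this study lists many loci of high FPKM for which none of the 4 wild-type tables lists anything. They are described here as loci with no wild-type counterpart. Each lies on chromosomes 1 to 19, is at least 300 and under 50000 bases wide, has a level of at least 20 FPKM in the first KO table, and shares not even 1 base with any locus of the 4 wild-type RNA tables. By this rule 2079 loci were found among the 143073 loci of the KO table. The members were therefore selected on KO level, KO width and wild-type position. Their level, width, absence from the wild-type tables and distance to wild-type regions are thus descriptions and not findings. The comparison set holds the 3621 KO loci within the same limits that do overlap a wild-type locus. Together the sets make up 5700 KO loci, called strong here for their FPKM alone. The loci with no wild-type counterpart are 36.5% of them.

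The series concerns the erasure of oxidized 5-methylcytosine from DNA and a SRAP-domain protein, Srap1, knocked out in mouse embryonic stem (ES) cells. The RNA groups used here were 4 wild-type samples and 2 samples labelled Srap1 KO, all from ES cells on a 129SVxC57/BL6 background. Wild-type and KO lines had been derived together, and both were grown on gelatin with serum, leukemia inhibitory factor, inhibitors of GSK3β and Mek, and ascorbic acid. The tables deposited for the 2 KO samples were identical in every byte and counted as 1 sample. A control immunoprecipitation of DNA from Srap1 KO ES cells with IgG (IgG DIP) on the same background served as an independent readout. Cells used for ChIP carried a stably expressed FHA-tagged Srap1. The labels name no separate cultures or clones, so the range over the wild-type tables measures the spread between these tables, which may be technical. With 1 KO sample there is no replicate check and no test between genotypes. Of the 31 samples in the series, 23 were not analysed here.

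Some background helps to read these loci. An assembler of RNA reads joins overlapping and spliced reads into transcripts, and writes a locus wherever enough fragments pile up. A gene sequenced at low depth can break into several loci or drop out, while a gene sequenced deeply can appear as 1 long locus or still as several. FPKM divides the fragments of a transcript by its effective length and by the library total, so a short effective length gives a high FPKM from few fragments. Mapping quality expresses how well an aligner could place a read at 1 position, and reads from repeated sequence score low. The tables pair no locus with a gene, and no mm9 annotation was used here, so loci are given by position on mouse build mm9 with no gene, exon or intron assigned. For the same reason the ES cell identity of the samples was not checked against marker genes, and the knocked-out gene itself was not examined.

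The KO table and the wild-type tables differed in depth. The distance from each FPKM to its deposited upper bound, read as 2 standard deviations of a Poisson count, gives an implied number of fragments. The sum was 11.7 to 12.1 times as large in the KO table as in a wild-type table. With the largest wild-type locus (chr17:39979940-39985777) left out, it was 29.4 to 30.8 times as large. In wild-type tables all implied fragments came to 895779 to 926460, of which 338453 to 355077 lay outside that locus. In the KO table the locus at this position held 378757 of 1.08e+07. Library makeup thus differed between these tables, and FPKM was not rescaled for it. The wild-type tables listed 8882 to 9295 loci each, and the 5th percentile of their implied fragments was 8.003 to 8.93. Under 10 implied fragments lay behind 13.8% to 15.2% of wild-type loci. Fewer cells of a type and less RNA per cell cannot be told apart in these bulk samples, and genotype, depth and library makeup cannot be told apart in this design.

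The loci with no wild-type counterpart had the FPKM of the comparison loci but far fewer fragments. Their median level was 31.4 FPKM, with quartiles of 24.1 and 49.0 FPKM, against 31.9 FPKM (24.2 and 48.4) in the comparison set. Their median implied number of fragments was 49.0, with quartiles of 21.0 and 142, against 435 (128 and 972). The comparison median was 8.87 times as high. Under 20 implied fragments lay behind 490 of the loci with no wild-type counterpart, or 23.6%, and behind 119 comparison loci, or 3.29%. Loci with no wild-type counterpart held 2.99% of all implied KO fragments, and comparison loci 34.6%.

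**Figure D1:**
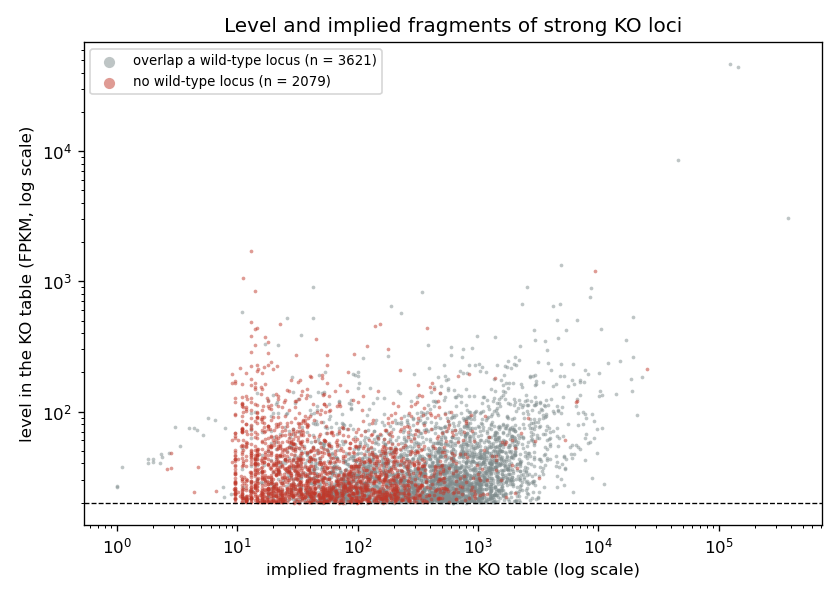
Each point is 1 strong KO locus, red where no wild-type table lists a locus and grey where one does, with implied fragments in the KO table on the x axis and FPKM on the y axis (both log scales; the dashed line is the limit of 20 FPKM). Red points crowd at the left, with a median of 49.0 fragments against 435 for grey points, while median FPKM is 31.4 and 31.9; 13 red and 47 grey loci with under 1 implied fragment are not drawn.

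The share of strong KO loci with no wild-type counterpart varied little with level and fell with fragments, a description with no test, since both come from the KO table used in the choice. It was 37.4% at 20 to 30 FPKM and 34.3% at 200 FPKM or more, with 34.8% to 38.3% in the classes between. By implied fragments it fell in steps: 80.5% of 609 loci under 20 fragments, 69.8% of 807 loci with 20 to 50, 48.2% of 745 with 50 to 100, 31.1% of 1798 with 100 to 500, 8.87% of 823 with 500 to 1000, and 3.70% of 918 loci with 1000 or more. Among comparison loci the number of wild-type tables that listed something also moved with fragments, and with width. The median was 109 implied KO fragments at the 623 loci listed in 1 wild-type table and 177 at the 460 in 2 tables. It was 304 at the 486 in 3 tables, and 763 at the 2052 in all 4. Median width rose in the same order, at 2915, 3665, 4290 and 6757.5 bases. Overlap needs only 1 base, and fragments and width were not separated here.

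**Figure D2:**
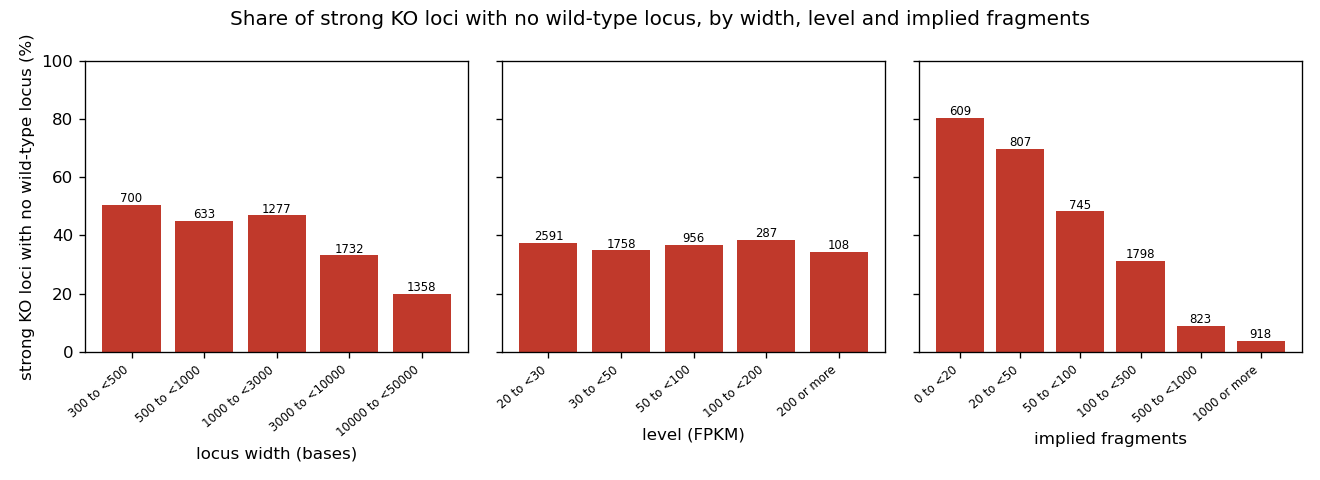
Bars give the percentage of strong KO loci with no wild-type locus in classes of width (bases), level (FPKM) and implied fragments; the number over each bar is the count of strong KO loci in the class. The share stays between 34.3% and 38.3% across level, goes from 50.3% in the narrowest to 19.96% in the widest class, and falls with fragments from 80.5% to 3.70%.

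To give the depth behind these absences, the implied fragments of every locus were scaled to the depth of each wild-type table. At that depth 588 to 601 of the 2079 loci with no wild-type counterpart, or 28.3% to 28.9%, would hold 10 or more fragments, and 76.3% to 76.9% of the comparison loci. Over all strong KO loci the share was 58.8% at the wild-type table with fewest fragments. With the largest wild-type locus left out of the totals, 221 to 236 loci (10.6% to 11.4%) would hold 10 or more, and 58.2% to 59.2% of the comparison loci, against 40.9% over all strong KO loci. The median locus with no wild-type counterpart would hold 4.07 to 4.21 fragments, or 1.59 to 1.67 with the largest locus left out. The limit of 10 fragments is not a limit of detection: 13.8% to 15.2% of wild-type loci were listed with under 10 implied fragments of their own. How much of the absence goes with depth was not tested. These figures assume an equal level in both genotypes, and they use 1 ratio per table.

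Width differed between the sets. Loci with no wild-type counterpart had a median width of 2258 bases, with quartiles of 740 and 5520, against 5089 bases (1460 and 11951) in the comparison set. They were 50.3% of strong KO loci of 300 to 500 bases, 45.0% of those of 500 to 1000, 46.8% of those of 1000 to 3000, 33.1% of those of 3000 to 10000, and 19.96% of wider ones. Within 300 to 500 bases the sets had close median fragments, 90.5 and 100, while at 10000 bases or more they had 80.2 and 739. The widest locus with no wild-type counterpart, chr7:96344550-96392509, covered 47959 bases at 32.6 FPKM (deposited interval 17.6 to 47.5) with 18.9 implied fragments. The next, chr2:33695746-33742871, was 47125 bases wide at 20.6 FPKM (8.67 to 32.6) with 11.9 fragments. Of the 5 widest, the locus with most fragments was chr2:13091593-13138512, with 62.7 fragments at 34.7 FPKM (26.0 to 43.5).

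The highest levels often rested on the fewest fragments. The top locus, chr15:58628755-58654424, had 1722 FPKM with an interval of 767 to 2678 FPKM, from 13.0 implied fragments over 25669 bases. Behind the chr16 locus given below came chr4:9521810-9522565, at 1068 FPKM (426 to 1710) from 11.1 fragments. Next was chr2:128644179-128648842, at 836 FPKM (390 to 1282) from 14.0 fragments. Of the 12 loci of highest FPKM, 8 had under 25 implied fragments. The exceptions were chr16:57391228-57391795 with 1189 FPKM (1165 to 1213) and 9451 fragments, chr2:9977655-9978483 with 435 FPKM (391 to 480) and 380 fragments, chr1:45449146-45449953 with 473 FPKM (396 to 549) and 153 fragments, and chr12:86320343-86321554 with 451 FPKM (375 to 528) and 139 fragments. The lower bound was itself at or above 20 FPKM for 1237 of the 2079 loci (59.5%) and for 78.2% of comparison loci.

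Dividing fragments by FPKM gives an implied effective length, on a scale that depends on the library total. It was 136 bases at the median locus with no wild-type counterpart and 1088 bases at the median comparison locus. As a share of the locus width, the medians were 5.66% and 23.7%. The highest shares were 187% and 204%, longer than the locus itself, so the implied length is approximate. The chr15 locus of 1722 FPKM had an implied effective length of 0.699 bases. That locus ranks first by FPKM with fewer fragments than the median of its set.

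At the limit itself values ran without a gap. The lowest levels inside were 20.0089 FPKM at chr19:5092127-5092498 and 20.0102 FPKM at chr12:52534214-52546859. Just outside lay chr4:46633665-46641410 at 19.9977 FPKM and chr9:109735654-109737940 at 19.9914 FPKM, which met every other part of the rule.

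A smaller group was covered well. It comprises the 221 loci that would hold 10 or more fragments in every wild-type table even with the largest wild-type locus left out, a group formed after the values were seen. Their median was 496 implied KO fragments, 36.4 FPKM and 3546 bases. Their median implied length was 40.6% of the locus width, against 4.51% in the other 1858 loci. Fragments chose this group and also enter the implied length, so neither value is a further finding. The 221 loci lay on all 19 chromosomes, and 62 of them (28.1%) were 10000 bases or wider. Among comparison loci 2108 met the same condition, with a median of 836 implied fragments.

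The locus with most fragments was chr1:45368378-45406524, of 38146 bases at 213 FPKM (211 to 216) with 25388 implied fragments. Scaled to the wild-type tables it would hold 2105 to 2177 fragments, or 824 to 865 with the largest wild-type locus left out, and the nearest wild-type region lay 445821 bases away. Neighbouring loci on chromosome 6 had overlapping intervals: chr6:4459568-4481665 had 119.8 FPKM (117 to 123) and 6602 fragments, and chr6:4481866-4491515, after a gap of 201 bases, had 119.3 FPKM (116 to 122) and 6560 fragments. Each would hold over 200 fragments at the lower wild-type depth (214 to 225 and 213 to 223), and the nearest wild-type region was 205840 bases away. Further loci of this kind were chr18:52675617-52689266 (31.1 FPKM, 3235 fragments), chr2:117937663-117952857 (59.8 FPKM, 2973 fragments), chr11:94797575-94813834 (89.3 FPKM, 2608 fragments) and chr13:56390003-56397767 (68.4 FPKM, 2294 fragments). The 12 loci with most fragments lay 25721 to 452949 bases from any wild-type region and would hold 65.8 to 865 fragments at the lower wild-type depth. Only 1 of them, the chr16 locus named above, was also among the 12 of highest FPKM. The loci in this paragraph were named after their values were seen. Since no gene was assigned to them, it was not tested whether they are genes of another cell type, such as feeder fibroblasts or differentiated cells, in the KO RNA sample.

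Loci with no wild-type counterpart lay on every chromosome searched. The counts ran from 67 on chromosomes 18 and 19 to 190 on chromosome 2. As a share of strong KO loci they were lowest on chromosome 6, at 26.0% (75 of 288), and highest on chromosome 13, at 45.7% (106 of 232). Per Mb they ranged from 0.502 on chromosome 6 to 1.35 on chromosome 11, which also had the most comparison loci per Mb, 2.63. Chromosome 6 was not poor in comparison loci, with 1.42 per Mb, and its loci with no wild-type counterpart had the lowest median fragments of any chromosome, 26.9. No test was made across chromosomes, since all loci come from 1 library.

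**Figure D3:**
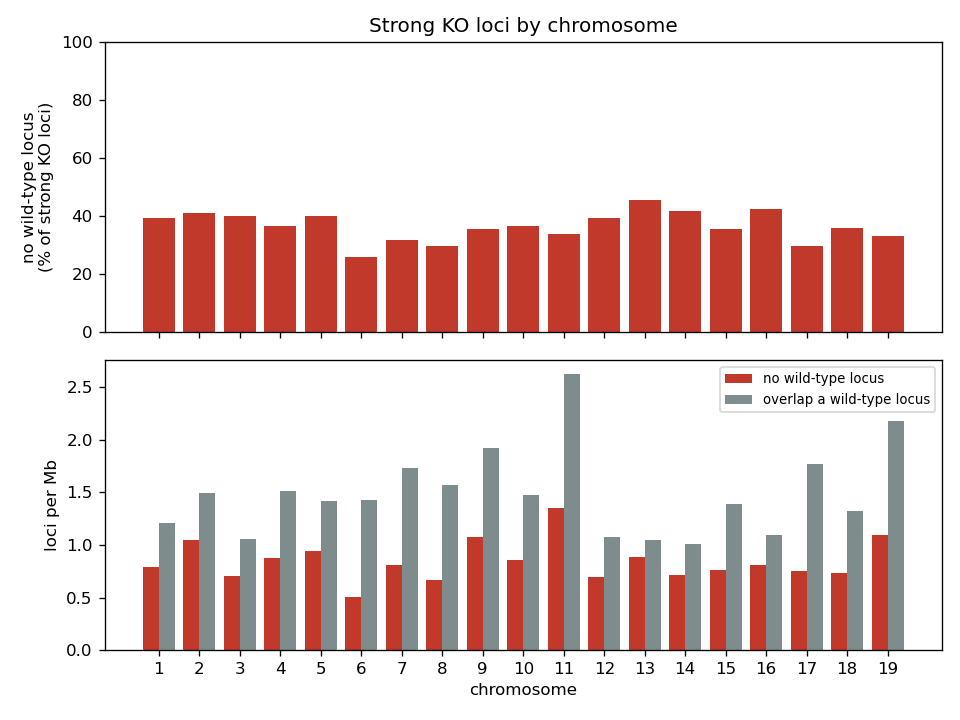
Upper bars give the percentage of strong KO loci that have no wild-type locus on each of chromosomes 1 to 19, and lower bars give both sets as loci per Mb. Chromosome 6 is lowest at 26.0% and chromosome 13 highest at 45.7%; chromosome 11 has the most loci of both sets per Mb.

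The nearest other wild-type region lay farther from loci with no wild-type counterpart than from comparison loci. Wild-type position chose both sets, so the distances are a description, and no baseline of other positions was taken. Wild-type loci of the 4 tables were merged into regions, and for each KO locus the nearest region that does not overlap it was found. The median distance was 28833 bases, with quartiles of 6911 and 107438, against 14970 bases (4716 and 48422) for the comparison set. Within 1000 bases lay 6.35% and 7.59% of the sets, within 10000 bases 30.6% and 40.6%, and within 100000 bases 73.8% and 85.1%. The closest locus with no wild-type counterpart was 17 bases from a wild-type region. Farthest was chr12:45391548-45397043, at 4441831 bases, with 41.5 FPKM (30.7 to 52.3) and 58.9 implied fragments. A locus on chromosome 18, chr18:28347142-28347565, lay 2898446 bases from the nearest wild-type region with 90.3 FPKM (81.7 to 98.9) and 442 fragments. Of the 5 farthest it had the most fragments. Of 992 windows of 1 Mb that held a locus with no wild-type counterpart, 95 held no wild-type region at all. The share over all windows was not computed, so this count cannot be read as high or low.

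**Figure D4:**
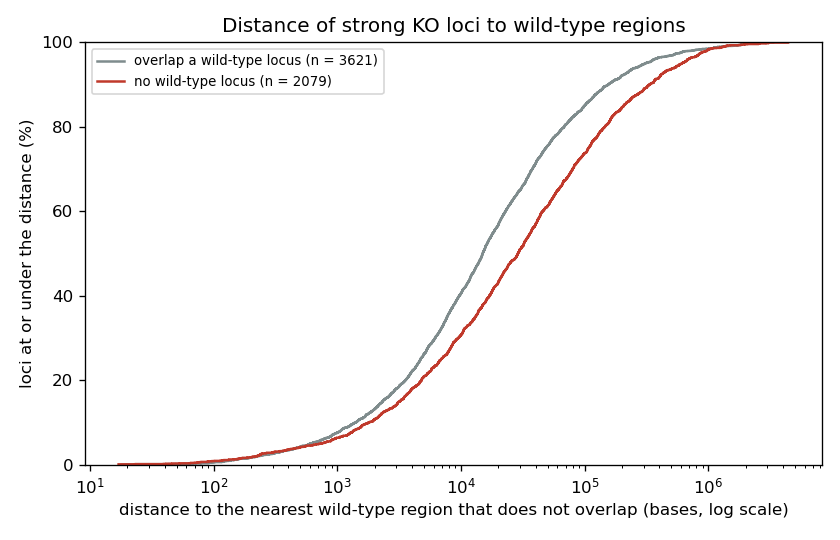
Curves give the percentage of loci (y axis) whose distance to the nearest non-overlapping wild-type region is at or under the value on the x axis (bases, log scale), red for loci with no wild-type locus and grey for comparison loci. The red curve lies to the right of the grey, with medians of 28833 and 14970 bases.

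Loci with no wild-type counterpart also occurred in groups. Another one lay within 10000 bases for 639 of them (30.7%), in 268 chains of 2 or more, while 1440 stood alone. Chains of 3 or more numbered 60. For comparison loci, another comparison locus lay within 10000 bases for 53.8%, in a set that is larger. Of the strong KO loci next to a locus with no wild-type counterpart along the chromosome, 52.1% had none either. Next to comparison loci 72.6% were comparison loci. Of all 5700 strong KO loci, 2079 (36.5%) had no wild-type counterpart and 3621 were comparison loci. Any other KO locus, of whatever level, lay within 1000 bases of 65.0% of loci with no wild-type counterpart and 87.4% of comparison loci. Among the 221 well-covered loci, 48.9% had another locus with no wild-type counterpart within 10000 bases, against 28.6% of the others.

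The chains with most loci were of different kinds. The longest held 10 loci in chr9:79446808-79555743, where loci covered 92.7% of 108935 bases with gaps of 176 to 2182 bases. Levels along it ran from 27.5 to 86.4 FPKM and implied fragments from 133 to 5262, with 12518 in all. Its widest locus, chr9:79504832-79547661, had 60.2 FPKM (58.5 to 61.8). A chain of 7 in chr1:45432321-45494343 started 25797 bases after the chromosome 1 locus of most fragments. It held 5786 fragments, at 58.7 to 71.9 FPKM in 5 of its loci and at 473 and 321 FPKM in the 2 whose fragments were fewest, 153 and 121. By contrast a chain of 8 in chr4:129735236-129770008 held 115 fragments in all, at most 22.0 per locus, at 21.8 to 288 FPKM, and covered 41.5% of its span. The chromosome 4 chain thus held the fewest fragments of the 3 by far, at levels that overlap those of the others.

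The IgG DIP library, which played no part in choosing the loci, gave 42030 reads inside the loci with no wild-type counterpart. Low mapping quality, here a score under 30 on a scale that reaches 60, was seen in 3856 of these reads, or 9.17% (95% exact binomial interval 8.90% to 9.45%). Across chromosomes 1 to 19 it was 19.8% of reads. In the comparison set it was 27.4% (27.2% to 27.6%) of 180619 reads, but 1 locus decided that value. The comparison locus chr2:98502387-98503136, 749 bases wide, held 38831 IgG DIP reads, 98.7% of them of low quality. Without it the comparison share was 7.91% (7.77% to 8.05%), and the order of the sets was reversed. That locus was listed in wild-type replicate 4 alone, at 12.9 FPKM from 12.1 implied fragments, against 102.1 FPKM (94.9 to 109) in the KO, so without that table it would pass into the other set. Intervals cover counting error only, and no test was made between sets of loci from 1 library.

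Counted locus by locus, the sets were close. Among loci with 10 or more IgG DIP reads, the median share of low quality reads was 5.00% in 1025 loci with no wild-type counterpart and 5.45% in 2474 comparison loci. In 17 of the 1025 loci (1.66%) the share was 50% or more, as in 33 of the 2474 (1.33%), where 1.43% of all strong KO loci with enough reads reached it. No read of low quality was found in 35.7% and 23.9%, respectively; over all loci the median was 9 and 23 reads per locus. Among reads in loci under 1000 bases wide the share was 23.7% in loci with no wild-type counterpart, and 21.4% in comparison loci without the chromosome 2 locus. Without the 4 densest loci with no wild-type counterpart it was 18.6%, so the order in this class turns with a few loci. In loci of 1000 to 3000 bases it was 5.43% against 11.02% in comparison loci, and in loci of 3000 to 10000 bases 7.44% against 8.65%. In loci of 10000 bases or more the order was the opposite, 9.87% against 7.14%.

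Read density was lower in loci with no wild-type counterpart over all widths together, but not in every width class. Reads of quality 30 or more came to 3.72 per kb in loci with no wild-type counterpart and 4.30 per kb in comparison loci without the chromosome 2 locus, with 2.86 per kb over chromosomes 1 to 19. Medians over loci were 3.74 and 4.09 per kb. By width they were 2.99 and 3.12 per kb at 300 to 500 bases, 3.62 and 3.39 at 500 to 1000, 3.93 and 3.93 at 1000 to 3000, 3.89 and 4.18 at 3000 to 10000, and 3.63 and 4.20 in wider loci. Reads that repeat a start and strand made up 0.678% in loci with no wild-type counterpart and 2.08% in comparison loci without the chromosome 2 locus. The 221 well-covered loci lay close to the other 1858, with 8.84% against 9.24% low quality reads and medians of 3.79 against 3.73 reads per kb.

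Only 4 loci with no wild-type counterpart and at least 20 reads exceeded 10 IgG DIP reads per kb, and in all 4 most reads were of low quality. At chr16:57391228-57391795, the locus of 9451 implied fragments, 48 of 65 reads (73.8%) were of low quality, at 115 reads per kb. In chr3:5860337-5860958, with 59.2 FPKM (54.1 to 64.2), it was 36 of 59 reads (61.0%) at 95.01 per kb. For chr16:35981670-35982083, with 32.0 FPKM (26.8 to 37.2), it was 29 of 30 (96.7%) at 72.6 per kb. Last, chr2:5300085-5300422, with 36.6 FPKM (29.7 to 43.6), had 13 of 21 (61.9%) at 62.3 per kb. The fifth densest, chr11:121073370-121075376, had 9.97 reads per kb and 1 of 20 reads of low quality. At the other 11 loci with most implied fragments, 0% to 12.5% of reads were of low quality.

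**Figure D5:**
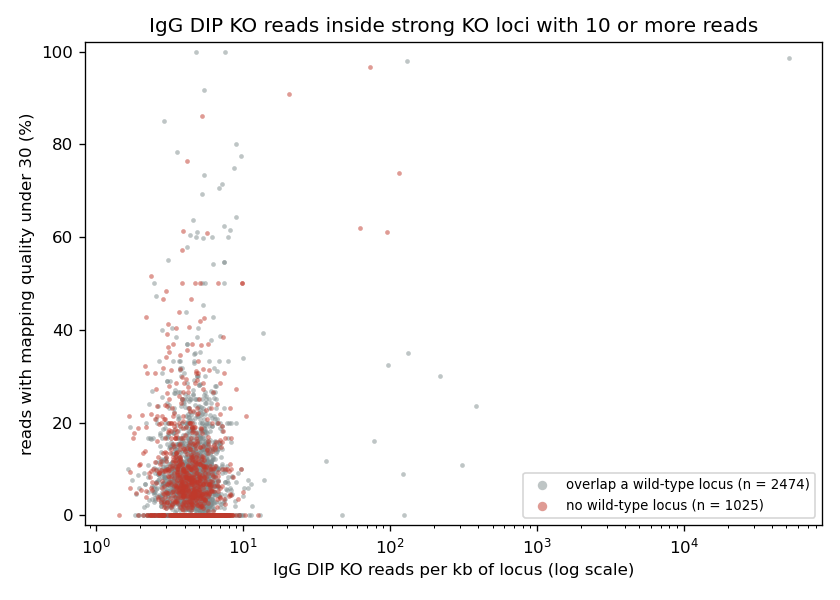
Each point is a strong KO locus with 10 or more IgG DIP KO reads, placed by reads per kb of locus (x axis, log scale) and by the percentage of its reads with mapping quality under 30 (y axis), red for loci with no wild-type locus and grey for comparison loci. Both sets form 1 cloud at a few reads per kb; the grey point at the far right is the chromosome 2 locus with 98.7% low quality reads.

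Windows listed for the control ChIP with IgG overlapped 3 of the 2079 loci with no wild-type counterpart (0.144%) and 14 of the 3621 comparison loci (0.387%). The list holds 1440 windows on chromosomes 1 to 19, with no score. These shares are per locus and were not scaled for width. Loci with no wild-type counterpart covered 10274008 bases and comparison loci 30375129 bases, so wider loci had more room for an overlap. With so few overlaps, a difference between the sets was not tested.

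The opposite direction was examined with the same limits. Each wild-type table held 3036 to 3149 loci on chromosomes 1 to 19 that were 300 to 50000 bases wide with at least 20 FPKM, and 93.0% to 93.8% of them overlapped a KO locus. The 196 to 213 that did not had a median width of 580 to 616 bases, against 3964 to 4007 bases for all wild-type loci within the limits. Their median level was 42.4 to 51.6 FPKM, and their median implied fragments were 38.8 to 52.7, above the 23.7 to 24.8 of all wild-type loci within the limits. In the KO table, strong loci with no counterpart in the other genotype had fewer fragments than comparison loci. In the wild-type tables, such loci had more than all loci within the limits, a baseline that includes them. These directions are not a like comparison, since the baselines, the depth and the library makeup behind the FPKM limit differ.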

How the data were processed

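RNA libraries were made from RNA depleted of ribosomal RNA with a stranded kit and 12 cycles of PCR, and DIP cells were at passages 3 to 5, per the labels' protocols. Each RNA table lists loci with an FPKM and the 2 ends of its interval, as the authors deposited them, and loci differ between libraries. For RNA, the submitters' processing notes list Cufflinks 2.2.1.0 and build mm9. For the DNA libraries they list Bismark 0.14.5 and builds mm9 and mm10, and for both kinds MACS2 2.1.1, Bowtie 0.12.8 and Trim Galore 0.3.5, with no role. The deposited IgG DIP file gives 1 aligned read per row, whose column 5 is a mapping quality score from 0 to 60, and its positions reach chromosome ends of mm9. The deposited IgG ChIP list holds 1730 windows with no score, and other selection steps are not given in the sources used here.

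Loci were compared by overlap of at least 1 base (Python 3.11.15, numpy 2.4.6, pandas 2.3.3, scipy 1.17.1). Width is end minus start, as listed. A read counted with 1 base inside a locus. Implied fragments are the square of FPKM over its standard deviation, taken as the distance from FPKM to its upper bound divided by 2. They were whole within 0.02 at 20.1% of loci with no wild-type counterpart and 10.2% of comparison loci, and so are approximate. At 72 and 70 loci they were under 10, which includes values near 0 where the approximation fails. Implied length uses their sum over the KO table as library total. Interval functions were tested on simulated data with known answers. Loci were named as the 12 of highest FPKM, the 5 widest, the 5 on either side of the limit, the 3 chains with most loci (gaps up to 10000 bases), the 5 with the highest share of low quality reads, the 5 densest (at least 20 reads) and the 5 farthest from wild type, of which some are printed. Marker lists planned for ES cells and feeders were not used, since no locus has a gene name. The members, lists and measures were chosen with earlier results of these data known.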

Additional observations from a re-analysis of the deposited data

How the results depend on the processing

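The number of loci with no wild-type counterpart was 2079, and it was 5893 with a limit of 10 FPKM, 727 with 40 FPKM, and 1237 when the lower bound had to reach 20 FPKM. The other 7 settings, which changed the width limit, the distance to wild type or left out 1 wild-type table, stayed within 1.5 times. Their median implied fragments were 36.2 with 40 FPKM, 77.3 with the lower bound, 39.1 from 1000 bases in width, and 38.6 with no wild-type locus within 10000 bases. In all 10 settings the comparison median was higher, by 4.49 to 20.3 times.

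The difference in low quality IgG DIP reads, loci with no wild-type counterpart minus comparison, was -18.3 percentage points and depended on 1 comparison locus. It reversed to 1.27 without that locus (a setting chosen after seeing the data), to 0.826 in loci of 1000 bases or more (as the width limit or as a class), and to 0.491 with 1 read per start and strand. Without each wild-type table it was -18.8 to 42.3, the highest without replicate 4, where that locus changes sets. It was -9.42 with 10 FPKM, -39.2 with 40 FPKM, -21.1 with the lower bound, -17.7 with a quality limit of 10, -70.8 under 1000 bases, and -0.455 as medians over loci. The second KO table equals the first and was not run. No paired analysis was possible because the KO group holds 1 sample and no test over samples was made. Wild-type depth limits what an absence shows: most loci with no wild-type counterpart would hold under 10 fragments there. At 10 or more would be 28.3% to 28.9% of them and 76.3% to 76.9% of comparison loci, which were chosen for being listed. With the largest wild-type locus left out, these shares were 10.6% to 11.4% and 58.2% to 59.2%. The part of depth in the absences was not tested.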
